A study of Mus musculus with 12 samples.

Results

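Adhesion of blood cells in the bone marrow rests on a small set of surface proteins, and 9 of their genes were followed here across bone marrow macrophages and monocytes of the mouse. The genes were Selplg, Spn and Cd44, which encode proteins that carry selectin-binding or hyaluronan-binding activity, Vcam1, Icam1, Icam2 and Pecam1 of the immunoglobulin superfamily, and the pair Cd47 and Sirpa. They were chosen by name and matched by symbol to the Ensembl gene rows of the deposited tables, where each had 1 row, so that 9 of 56953 gene rows were taken. Poly(A) RNA of sorted cells was sequenced in 12 libraries, 3 in each of 4 groups. The animals were 8-week-old female mice on the C57BL/6J background, and the macrophages came from Rank cre/+;R26.eYFP fl/+ mice, in which Cre recombinase driven from the Rank locus switches on a yellow fluorescent protein in embryonic macrophages and leaves it off in cells that arise from adult haematopoietic stem cells. The eYFP+ macrophages were thus taken by the study as embryo-derived and the eYFP- macrophages as adult-derived, and an eYFP- cell is one in which the reporter was not switched on. The other 2 groups were Ly6Chi and Ly6Clo monocytes. Macrophages were sorted as CD45+ cells positive for F4/80, CD206 and VCAM1, whereas monocytes were sorted on CD11b, scatter and Ly6C. The sources used here do not state whether the libraries of a group came from separate mice, so that all p-values measure the spread between these libraries.

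Leukocytes slow down on vessel walls when selectins bind sialylated and fucosylated mucins such as PSGL-1, the product of Selplg. They then stop when integrins on the leukocyte bind immunoglobulin superfamily proteins on the other cell, α4 integrins binding VCAM-1 and β2 integrins binding the ICAMs. In the bone marrow VCAM-1 is best known on stromal cells, endothelium and the resident macrophages that surround erythroblasts, and CD47 on a target cell restrains engulfment by signalling through SIRPα on the macrophage.

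The deposited count tables held 26390927 to 48618187 assigned read pairs per library. The 9 listed markers of bone marrow macrophages summed to 38006 TPM or more in each macrophage library and to 3221 TPM or less in each monocyte library, and 4 listed Ly6Chi monocyte markers summed to 10930.2 to 11477 TPM in the Ly6Chi libraries and to at most 626 TPM elsewhere. TPM is a read count divided by gene length and scaled to the same total in every library, a level that allows genes to be compared with each other. Ly6Clo replicate 2 and eYFP+ replicate 1 stood apart, since genes with the most GC-rich transcripts, the top bin of 5, were under-represented there, by a median of -1.06 and -0.58 on the log2 scale relative to the other 2 libraries of the same group. Correlations of the variance-stabilised values with the other replicates were 0.944 and 0.947 for Ly6Clo replicate 2, against 0.974 to 0.988 within the other groups. Values without them are given beside several of the results.

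**Figure D1:**
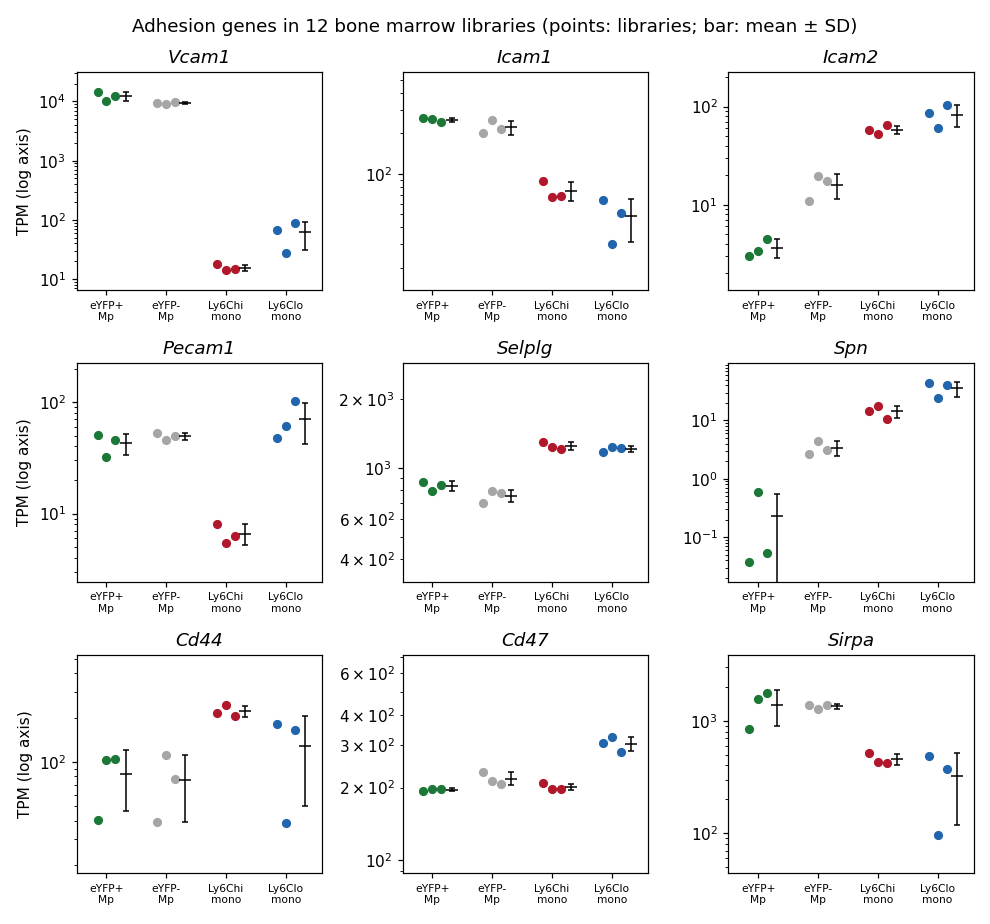
TPM of the 9 adhesion genes in each library, on log axes with a range of their own in each panel, for eYFP+ macrophages (Mp), eYFP- macrophages, Ly6Chi monocytes and Ly6Clo monocytes. Points are libraries in replicate order and the bar to their right is the mean with 1 SD (n = 3 libraries), the lower bar of Spn in eYFP+ macrophages running off the axis because the SD (0.314) exceeds the mean (0.228). Vcam1 lies at 8965 TPM or more in the macrophages and at 90.2 TPM or less in the monocytes, while Icam2 and Spn climb from eYFP+ macrophages through eYFP- macrophages to the monocytes.

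Vcam1, the counter-receptor of α4 integrins, was among the most abundant transcripts of the macrophages. Its level was 14369, 10122 and 12445 TPM in eYFP+ replicates 1 to 3, and 9315, 8965 and 9895 TPM in the eYFP- libraries. It ranked 6th of the genes detected in eYFP+ macrophages and 9th in eYFP- macrophages. The Ly6Chi monocytes held 17.7, 14.4 and 15 TPM and the Ly6Clo monocytes 68.5, 28.1 and 90.2 TPM. The macrophage libraries thus lay far above every monocyte library, but VCAM1 protein was one of the markers by which macrophages were sorted. The log2 difference between macrophages and monocytes, 8.34 ± 0.28 (SE), is therefore a description of the gate and is given without a test.

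Within each cell class VCAM1 was not used to separate the groups. Between eYFP+ and eYFP- macrophages the log2 fold change of Vcam1 was 0.43 ± 0.40 with a 95% interval of -0.34 to 1.21, which did not pass (DESeq2 adjusted p = 0.978), and it was 0.21 without the 2 libraries that stood apart. Between the monocyte groups Vcam1 was 3.92-fold lower in Ly6Chi than in Ly6Clo cells (log2 -1.97 ± 0.40, DESeq2 adjusted p = 3.94e-05). The lowest Ly6Clo library was replicate 2, and every Ly6Clo library lay above every Ly6Chi library. Without Ly6Clo replicate 2 the log2 difference was -2.30. Markers of bone marrow macrophages moved in the same direction: the 9 markers summed to 3221, 1316 and 2115 TPM in Ly6Clo replicates 1 to 3 and to 528 to 577 TPM in the Ly6Chi libraries. None of the 9 was at 0 in all libraries of a monocyte group. In Ly6Clo monocytes the summed macrophage markers were at 5.65% of the eYFP- macrophage level, and Vcam1 was at 0.663%. The part of macrophage RNA in the difference was not tested.

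Icam1 encodes the main inducible ligand of β2 integrins such as LFA-1. It measured 260.0, 254 and 243 TPM in the eYFP+ libraries and 199.7, 251 and 213 TPM in the eYFP- libraries. In monocytes it measured 89.0, 67.3 and 68.4 TPM in Ly6Chi cells and 63.8, 30 and 50.7 TPM in Ly6Clo cells. All 6 macrophage libraries exceeded all 6 monocyte libraries. Icam1 was 3.69-fold higher in macrophages (log2 1.88 ± 0.21, DESeq2 adjusted p = 1.22e-18), and the macrophage groups did not pass against each other (log2 0.24 ± 0.29, 95% interval -0.33 to 0.81, adjusted p = 1). The order was eYFP+ macrophages, eYFP- macrophages, Ly6Chi monocytes, Ly6Clo monocytes, in which only the step from macrophages to monocytes passed. The monocyte step of 0.66 ± 0.29 had an adjusted p of 0.153 and came to 0.43 without Ly6Clo replicate 2 and to 0.86 without Ly6Clo replicate 1, when it passed with an adjusted p of 0.0429.

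Icam2, a constitutive ligand of LFA-1 found on endothelium, platelets and leukocytes, showed the opposite pattern. It measured 2.97, 3.41 and 4.51 TPM in eYFP+ macrophages and 10.9, 19.8 and 17.3 TPM in eYFP- macrophages. The Ly6Chi libraries held 57.1, 52.8 and 64.3 TPM and the Ly6Clo libraries 86.0, 59.9 and 103 TPM. No eYFP+ library reached the lowest eYFP- library, and no macrophage library reached the lowest monocyte library. Icam2 was 4.27-fold lower in eYFP+ than in eYFP- macrophages (log2 -2.09 ± 0.30, DESeq2 adjusted p = 8.1e-09). This call held in all 25 alternative settings, in which the log2 difference ran from -2.26 to -1.85 and the largest adjusted p was 0.0311. Against all monocytes the macrophages were 9.85-fold lower (log2 -3.30 ± 0.21, adjusted p = 4.93e-53), whereas Ly6Chi and Ly6Clo monocytes overlapped and did not pass (log2 -0.50 ± 0.29, adjusted p = 0.324).

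Pecam1, which encodes the homophilic junction protein CD31, split the monocytes instead of the macrophages. It measured 50.5, 32.4 and 45.4 TPM in eYFP+ macrophages, and 52.9, 45.3 and 49.5 TPM in eYFP- macrophages. The Ly6Chi libraries held 8.10, 5.39 and 6.31 TPM and the Ly6Clo libraries 48.1, 61.3 and 101 TPM. The Ly6Chi monocytes were alone at the low end, and the other 3 groups overlapped. Pecam1 was 10.7-fold lower in Ly6Chi than in Ly6Clo monocytes (log2 -3.42 ± 0.38, DESeq2 adjusted p = 3.47e-17), and the log2 difference was -3.48 without Ly6Clo replicate 2. The 6 markers of megakaryocytes and platelets, cells that also carry CD31, summed to 2.13 to 4.06 TPM in Ly6Chi and 58.2 to 75.0 TPM in Ly6Clo libraries and to 122 to 200.2 TPM in macrophages. Nearly all of this sum in the Ly6Clo libraries was Pf4, at 55.8 to 74.8 TPM, while Itga2b was at 0 to 1.72 TPM, Ppbp and Gp9 were under 1 TPM and Gp1ba and Gp1bb were at 0 in each of them. The macrophage markers given beside Vcam1 were higher in Ly6Clo cells, and their part in the Pecam1 difference was not tested. The difference between the macrophage groups did not pass (log2 -0.17 ± 0.37, 95% interval -0.90 to 0.57, adjusted p = 1). On the log2 scale the average of the macrophage groups exceeded that of the monocyte groups (1.0 ± 0.27, DESeq2 adjusted p = 0.000801), but the classes overlapped. Mean TPM was 42.8 in eYFP+ and 49.2 in eYFP- macrophages, 6.60 in Ly6Chi and 70.3 in Ly6Clo monocytes. Both macrophage groups lay above Ly6Chi cells (log2 2.62 for eYFP+ and 2.79 for eYFP-) and did not pass against Ly6Clo cells (-0.79, adjusted p = 0.106, and -0.63, adjusted p = 0.220). Leaving out Ly6Clo replicate 1 moved the eYFP+ difference from Ly6Clo cells to -1.04, and leaving out both libraries that stood apart moved it to -1.13 (adjusted p = 0.0113), and it passed in both cases.

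**Figure D2:**
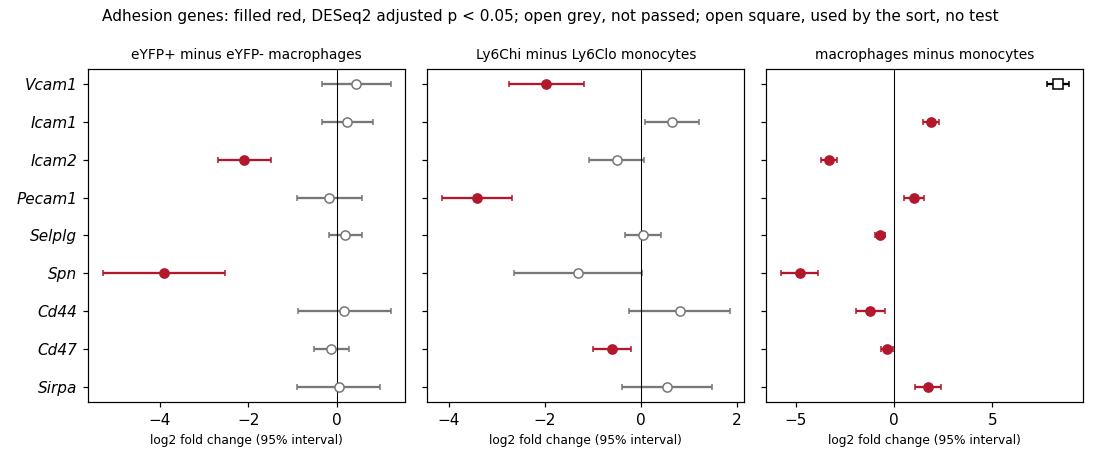
Log2 fold changes of the 9 adhesion genes with 95% intervals from the DESeq2 fit over 12 libraries, for eYFP+ against eYFP- macrophages (left), Ly6Chi against Ly6Clo monocytes (middle) and all macrophages against all monocytes (right), positive where the first named is higher. Filled red points passed an adjusted p of 0.05 and open grey points did not, with Icam2 and Spn passing on the left, Vcam1, Pecam1 and Cd47 in the middle and all 8 genes other than Vcam1 on the right, where the axis is wider and the open square is Vcam1, drawn without a test because the sort used its protein.

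Spn encodes CD43, a large sialomucin of leukocytes that can bind E-selectin. Its promoter was read from RefSeq windows, which were at hand for 4 of the 9 genes, as the 250 bases before the annotated start in build GRCm38.p6. The windows of Spn, Cd44 and Icam1 are shown because, of the 4 genes with a window, these differed most between macrophages and monocytes, Spn and Cd44 being lower and Icam1 higher in macrophages. Each is written 5′ to 3′ on the strand of its gene, ending at the base before the start, and capitals mark motifs that a search found.
Spn, chr7:127137824-127138073, minus strand: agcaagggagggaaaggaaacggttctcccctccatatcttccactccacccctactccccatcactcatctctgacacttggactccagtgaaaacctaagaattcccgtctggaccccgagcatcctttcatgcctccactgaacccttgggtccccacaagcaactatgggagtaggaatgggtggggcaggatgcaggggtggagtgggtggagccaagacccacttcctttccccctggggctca
Cd44, chr2:102901666-102901915, minus strand: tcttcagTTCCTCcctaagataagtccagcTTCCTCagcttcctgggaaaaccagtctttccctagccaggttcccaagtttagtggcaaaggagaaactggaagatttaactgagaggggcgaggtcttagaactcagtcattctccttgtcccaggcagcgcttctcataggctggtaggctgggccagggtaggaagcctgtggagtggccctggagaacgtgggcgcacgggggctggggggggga
Icam1, chr9:21015690-21015939, plus strand: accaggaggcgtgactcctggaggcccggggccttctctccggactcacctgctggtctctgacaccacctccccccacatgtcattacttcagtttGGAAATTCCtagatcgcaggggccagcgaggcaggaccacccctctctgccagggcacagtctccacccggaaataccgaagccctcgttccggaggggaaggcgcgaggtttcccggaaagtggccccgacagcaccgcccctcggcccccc
The motifs searched on both strands were GGAATTTCC and the degenerate NF-κB consensus, both of the NF-κB type, GAGGAA of the PU.1 type, CACGTG and TATAAA. The Icam1 window held GGAATTTCC on the opposite strand, read as GGAAATTCC, 153 bases before the start, a motif present in 0.286% of the 32851 promoter windows. The Cd44 window held GAGGAA on the opposite strand at 243 and 220 bases before the start, a motif present in 23.3% of windows. The other motifs, present in 0.478% (degenerate NF-κB consensus), 6.02% (CACGTG) and 12.4% (TATAAA) of windows, were in none of the 3, and the Spn window held no searched motif. These are matches of letters, and binding was not measured.

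Spn was nearly silent in eYFP+ macrophages, with 0.0381, 0.590 and 0.0544 TPM from 3, 44 and 5 read pairs. It measured 2.61, 4.50 and 3.18 TPM in eYFP- macrophages, from 224 to 392 read pairs. The Ly6Chi libraries held 14.8, 17.5 and 10.7 TPM and the Ly6Clo libraries 43.3, 23.9 and 40.2 TPM. No groups overlapped. The order was thus eYFP+ macrophages, eYFP- macrophages, Ly6Chi monocytes and Ly6Clo monocytes from low to high. Spn was lower in eYFP+ than in eYFP- macrophages by log2 -3.90 ± 0.71 (DESeq2 adjusted p = 1.35e-05). The size rests on few reads, since leaving out eYFP+ replicate 2 moved it to -6.14, leaving out eYFP+ replicate 1 to -3.42, and a pseudocount of 1 TPM brought it to -1.86. The edgeR quasi-likelihood test gave an adjusted p of 0.0593 for the same difference. Macrophages were lower than monocytes by log2 -4.81 ± 0.49 (DESeq2 adjusted p = 2.56e-21), and eYFP- macrophages were lower than Ly6Chi monocytes by -2.20 ± 0.68 (adjusted p = 0.00687). The latter call was lost without Ly6Chi replicate 2 (-2.04, adjusted p = 0.0511). The monocyte step of -1.31 ± 0.68 did not pass (adjusted p = 0.250), but it did in 4 of 25 alternatives, 1 of them the omission of eYFP+ replicate 2 (-1.31, adjusted p = 0.00435).

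Several lists of markers of other bone marrow cells moved with Icam2 and Spn between the macrophage groups. The 8 endothelial markers summed to 1.70 to 5.60 TPM in eYFP+ and 20.7 to 46.5 TPM in eYFP- libraries, with Cdh5, Vwf and Flt1 under 1 TPM in the eYFP- libraries. The 6 stem and progenitor markers summed to 4.74 to 8.50 and 27.2 to 65.5 TPM, and the 8 T and NK cell markers to 9.34 to 23.9 and 61.6 to 127 TPM. Stromal markers (8.27 to 16.7 and 42.1 to 67.5 TPM, 6 genes), erythroid markers (9005 to 14494 and 22412 to 35227 TPM, 9 genes) and neutrophil markers (122 to 199.8 and 239 to 2618 TPM, 9 genes) were likewise higher in every eYFP- library. The 4 Ly6Chi monocyte markers summed to 3.17 to 5.48 TPM in eYFP+ and 4.89 to 106 TPM in eYFP- libraries, ranges that overlapped. Their eYFP- mean was 0.366% of that in Ly6Chi monocytes, and Icam2 was at 27.5% and Spn at 24.0% of the Ly6Chi level. Relative to Ly6Clo monocytes, the eYFP- mean was 27.4% for the Ly6Clo monocyte markers, 19.3% for Icam2 and 9.58% for Spn. Markers of Ly6Clo monocytes summed to 679 to 1120 and 667 to 777 TPM, of megakaryocytes and platelets to 122 to 200.2 and 136 to 184 TPM, and of B cells to 484 to 720.2 and 510.3 to 612 TPM, with overlapping ranges in each case. Pf4 made up most of the megakaryocyte and platelet sum, and within that list Itga2b (0.457 to 0.960 and 11.2 to 21.1 TPM) and Gp9 (0 to 2.97 and 6.93 to 12.4 TPM) were higher in every eYFP- library. The part of these cell types in the Icam2 and Spn differences was not tested. In bulk samples, fewer expressing cells and less RNA per cell cannot be told apart.

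Selplg encodes PSGL-1, the main ligand of P-selectin on leukocytes. It was abundant everywhere, with 872, 791 and 845 TPM in eYFP+ macrophages and 703, 790.2 and 776 TPM in eYFP- macrophages. Ly6Chi monocytes held 1299, 1235 and 1205 TPM, and Ly6Clo monocytes 1174, 1239 and 1216 TPM. Every monocyte library exceeded every macrophage library, and the monocyte groups overlapped. Macrophages were 1.65-fold lower than monocytes (log2 -0.73 ± 0.13, DESeq2 adjusted p = 4.91e-07). Each macrophage group passed against each monocyte group, with log2 differences from -0.84 to -0.61, although eYFP+ macrophages no longer passed against Ly6Clo monocytes without eYFP+ replicate 2 (-0.55) or 3 (-0.56). With only the groups compared in the fit, neither macrophage group passed against Ly6Clo monocytes (-0.60, adjusted p = 0.340, for eYFP+ and -0.79, adjusted p = 0.0737, for eYFP-). The macrophage groups differed by 0.19 ± 0.19 (95% interval -0.18 to 0.56, adjusted p = 1, and 0.075 without eYFP+ replicate 1) and the monocyte groups by 0.04 ± 0.19 (-0.33 to 0.41, adjusted p = 0.938).

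Cd44 encodes the hyaluronan receptor CD44, which in some glycoforms also binds E-selectin. It measured 40.7, 104 and 105 TPM in eYFP+ macrophages and 38.9, 112 and 76.5 TPM in eYFP- macrophages. It measured 214, 242 and 206 TPM in Ly6Chi monocytes and 182, 38.9 and 164 TPM in Ly6Clo monocytes. Replicate 1 of both macrophage groups and replicate 2 of the Ly6Clo group were low, at log2 ratios of -1.14, -1.05 and -2.03 to the other libraries of their group. Macrophages were 2.31-fold lower than monocytes with overlap (log2 -1.21 ± 0.38, DESeq2 adjusted p = 0.00553), and the value was -1.32 (adjusted p = 9.41e-09) without eYFP+ replicate 1 and Ly6Clo replicate 2. The call was lost with limma on log2(TPM + 1) (-1.06, adjusted p = 0.0544) and on log2(TPM + 0.1) (-1.06, adjusted p = 0.0619). Both macrophage groups were lower than Ly6Chi monocytes (-1.53, adjusted p = 0.0180, and -1.70, adjusted p = 0.00842). The eYFP+ call was lost on leaving out eYFP+ replicate 1 (-1.24, adjusted p = 0.0991) and on leaving out any single Ly6Chi library, and the eYFP- call on leaving out eYFP- replicate 1 (-1.42, adjusted p = 0.0666). Against Ly6Clo monocytes neither macrophage group passed (-0.72, adjusted p = 0.356, and -0.89, adjusted p = 0.227), but without Ly6Clo replicate 2 both did (-1.19, adjusted p = 0.0142, and -1.36, adjusted p = 0.00446). Neither the macrophage groups (0.17 ± 0.54, 95% interval -0.88 to 1.22, adjusted p = 1) nor the monocyte groups (0.81 ± 0.54, adjusted p = 0.403) passed against each other.

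**Figure D3:**
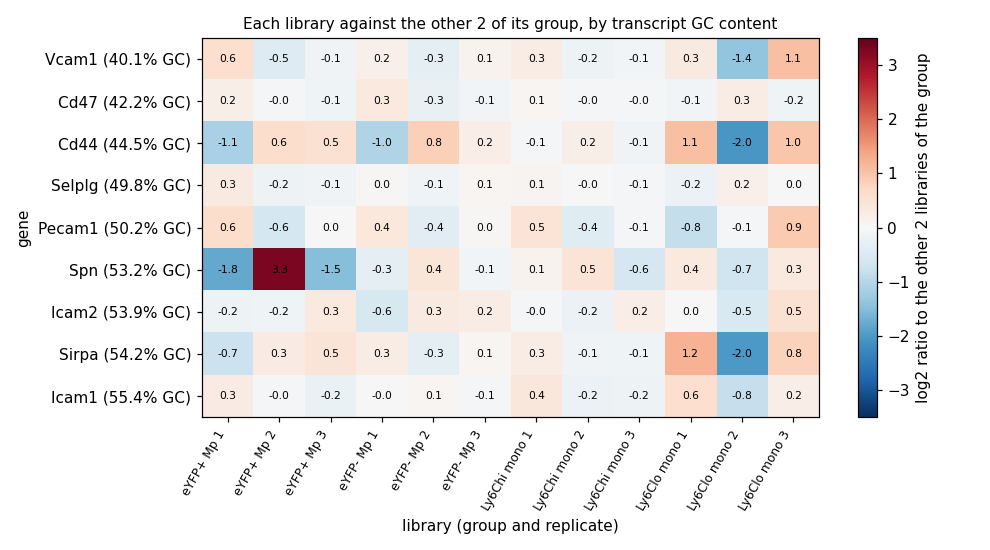
Log2 ratio of the normalised count in each library to the mean of the other 2 libraries of its group, for the 9 adhesion genes ordered by the GC content of their transcripts (percent, GRCm38 annotation). Ly6Clo replicate 2 is low for Cd44 and Sirpa (-2.0 each), and Spn varies most among the eYFP+ libraries, where it rests on few reads.

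Cd47 encodes the ligand of SIRPα and is expressed by almost all cells. It was the most even of the 9 genes, with 194, 197 and 198 TPM in eYFP+ macrophages and 233, 213 and 207 TPM in eYFP- macrophages. The Ly6Chi libraries held 209, 197 and 198 TPM, and the Ly6Clo libraries 307, 325 and 282 TPM. The first 3 groups lay close together and the Ly6Clo monocytes stood above them. Cd47 was 1.51-fold lower in Ly6Chi than in Ly6Clo monocytes (log2 -0.60 ± 0.21, DESeq2 adjusted p = 0.0439), a call that was lost in 16 of 25 alternative settings, including the edgeR test (adjusted p = 0.117) and the omission of 10 of 12 single libraries. Both macrophage groups were lower than Ly6Clo monocytes (-0.72, adjusted p = 0.00321, and -0.60, adjusted p = 0.0182), the eYFP- call being lost without eYFP- replicate 2 (-0.51) or eYFP- replicate 3 (-0.56). Both calls were lost with only the groups compared in the fit (-0.70, adjusted p = 0.226, and -0.59, adjusted p = 0.267). They did not pass against Ly6Chi monocytes (-0.12, 95% interval -0.52 to 0.28, and 0.00, -0.40 to 0.41). The comparison of all macrophages with all monocytes passed (-0.36 ± 0.15, adjusted p = 0.0407) and was lost in 15 of 24 alternatives, 9 of them the omission of a single library.

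Sirpa encodes the inhibitory receptor SIRPα of myeloid cells. It measured 843, 1552 and 1752 TPM in eYFP+ macrophages and 1373, 1267 and 1383 TPM in eYFP- macrophages. The Ly6Chi libraries held 513, 428 and 425 TPM and the Ly6Clo libraries 488, 97.1 and 374 TPM. All macrophage libraries exceeded all monocyte libraries, and the low values of each class were again eYFP+ replicate 1 and Ly6Clo replicate 2. Sirpa was 3.34-fold higher in macrophages (log2 1.74 ± 0.34, DESeq2 adjusted p = 1.98e-06), and 1.59 (adjusted p = 1.64e-27) on the log2 scale without these 2 libraries. Neither the macrophage groups (0.04 ± 0.48, 95% interval -0.89 to 0.98, adjusted p = 1) nor the monocyte groups (0.55 ± 0.48, adjusted p = 0.568, and 0.13 without Ly6Clo replicate 2) passed against each other. Against Ly6Chi monocytes alone, eYFP+ and eYFP- macrophages were higher by 1.49 (adjusted p = 0.00868) and 1.45 (adjusted p = 0.0127). These calls were lost without eYFP+ replicate 3 for the first (adjusted p = 0.0591), and without eYFP- replicate 1 (1.37) or 3 (1.43) or Ly6Chi replicate 2 (1.39) or 3 (1.39) for the second, with adjusted p-values up to 0.0627.

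In TPM, Vcam1, Sirpa and Selplg led the macrophages and Selplg, Sirpa and Cd44 the Ly6Chi monocytes, where Cd44 (206 to 242 TPM) and Cd47 (197 to 209 TPM) overlapped. In eYFP+ macrophages the mean levels ran from 12312 ± 2127 TPM (SD, n = 3) for Vcam1 and 1382 ± 478 for Sirpa down to 3.63 ± 0.797 for Icam2 and 0.228 ± 0.314 for Spn. In Ly6Chi monocytes they ran from 1246 ± 48.4 TPM for Selplg to 6.60 ± 1.38 for Pecam1. In Ly6Clo monocytes Selplg led with 1209.7 ± 32.7 TPM and Spn was lowest with 35.8 ± 10.4 TPM.

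Of the 9 genes, 2 passed between eYFP+ and eYFP- macrophages, both lower in eYFP+ cells, where 2.07% of all 21195 genes tested passed, 0.156% higher and 1.92% lower. The normalised counts of 4 of the 9 did not overlap between these groups, namely Icam2, Spn, Selplg and Icam1, where 15.3% of all genes tested did not overlap, and Selplg and Icam1 had adjusted p-values of 1. The median log2 fold change was 0.04 over the 9 genes and 0.05 over all genes. Between Ly6Chi and Ly6Clo monocytes 3 of the 9 passed, all lower in Ly6Chi cells, where 8.82% of genes passed, 3.74% higher and 5.08% lower, and the medians were -0.50 and 0.01. Between macrophages and monocytes Vcam1 is left out of the counts, because the sort used its protein, and the other 8 passed, 3 higher and 5 lower, where 36% of genes passed, 20.7% higher and 15.3% lower. For Pecam1, Cd44 and Cd47 the classes overlapped. Erythroid markers summed to 9005 to 35227 TPM in macrophage and 359 to 1410 TPM in monocyte libraries. The sums were 122 to 200.2 and 2.13 to 75.0 TPM for megakaryocytes and platelets, and 122 to 2618 and 6727 to 24014 TPM for neutrophils. The part of these cell types in the differences of the 8 genes was not tested. The single-group comparisons, which share libraries with each other, passed for 7 of these 8 genes for eYFP+ macrophages against Ly6Chi monocytes (28.7% of all genes), 6 against Ly6Clo monocytes (26.1%), and for eYFP- macrophages 7 (25.5%) and 6 (26.8%).

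The partners of these proteins were followed in 7 lists of 60 genes, of which 53 were tested in the comparison of the macrophage groups, and 7 passed, all lower in eYFP+ cells, where 2.07% of all genes passed. Cd34, a sialomucin of progenitors and endothelium, was lower by log2 -4.58 ± 0.67 (DESeq2 adjusted p = 8.66e-09), at 0.168 to 3.12 TPM in eYFP+ and 22.0 to 44.6 TPM in eYFP- libraries. Among the integrin subunits, Itgb7 (-2.42, adjusted p = 7.85e-05) and the LFA-1 subunit Itgal (-1.76, adjusted p = 0.0118) were lower, and 6 of the 8 tested did not pass. The remaining 4 were Hmmr, a hyaluronan receptor of dividing cells (-1.89, adjusted p = 0.00663), the junction proteins Esam (-2.81, adjusted p = 0.0109) and Alcam (-2.14, adjusted p = 0.0369), and Sirpb1a (-1.47, adjusted p = 0.0346). None of the 13 enzymes and transporters that build selectin ligands passed in this comparison, a count close to that share. Itgal was also on the list of Ly6Clo monocyte markers, and the endothelial, progenitor and other marker sums that moved with Icam2 and Spn moved with these genes too, their part being not tested. The edgeR test called 1 of these genes, Cd34, where 0.334% of all genes passed. DESeq2 called 3 without eYFP- replicate 1, 4 without eYFP- replicate 3, eYFP+ replicate 2 or eYFP+ replicate 3, and 11 without Ly6Clo replicate 2, alone or together with eYFP+ replicate 1. Without eYFP- replicate 2 it called 5, of which 2 were higher in eYFP+ cells, Itgam (2.32, adjusted p = 0.000187) and the O-glycan branching enzyme Gcnt1 (1.41, adjusted p = 0.0201).

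Between the monocyte groups 9 partner genes passed, 4 higher and 5 lower in Ly6Chi cells, of 53 tested, where 8.82% of all genes passed. The macrophage markers (528 to 577 TPM in Ly6Chi and 1316 to 3221 TPM in Ly6Clo libraries), B cell markers (545 to 608 and 628 to 1469 TPM) and the platelet marker Pf4 (0.398 to 2.43 and 55.8 to 74.8 TPM) were higher in Ly6Clo cells. Neutrophil markers (15878 to 24014 and 6727 to 15871 TPM) and T and NK cell markers (28.2 to 51.1 and 20.5 to 27.5 TPM) were higher in Ly6Chi cells. The part of these cell types in the differences was not tested. The E-selectin gene Sele, an endothelial selectin, was counted 11 to 39 times in Ly6Chi libraries and 0 times in the Ly6Clo libraries, so that its level was low even where it passed. Of the ligand-building genes, C1galt1c1, the chaperone of the core 1 O-glycan enzyme, was higher in Ly6Chi cells (log2 2.35 ± 0.39, DESeq2 adjusted p = 1.78e-07), as was the tyrosine sulfotransferase Tpst2 (1.19 ± 0.33, adjusted p = 0.00731), while Galnt1 (-1.15 ± 0.21, adjusted p = 2.67e-06) and St3gal6 (-1.59 ± 0.44, adjusted p = 0.00652) were lower. Thrombospondin 1, a ligand of CD47, was higher in Ly6Chi monocytes (Thbs1, 6.20 ± 1.57, adjusted p = 0.00225), at 41.6 to 154 TPM against 0.168 to 2.54 TPM. Among integrin subunits, Itgax, which pairs with β2 to bind ICAMs, was lower in Ly6Chi cells (-4.54 ± 0.46, adjusted p = 2.41e-20), as were Itgal (-1.45, adjusted p = 0.0239) and Itgb1 (-1.19, adjusted p = 0.0317). On the log2 scale the macrophage average of Itgax was above the average of both monocyte groups (1.19, DESeq2 adjusted p = 0.00106) but below Ly6Clo cells. None of the other junction proteins (10 tested), CD44 partners (7 tested) or other sialomucins (4 tested) passed, lists too short for a count of 0 to differ clearly from that share. The count was 15 without the 2 libraries that stood apart, 5 with edgeR and 4 without Ly6Chi replicate 2.

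**Figure D4:**
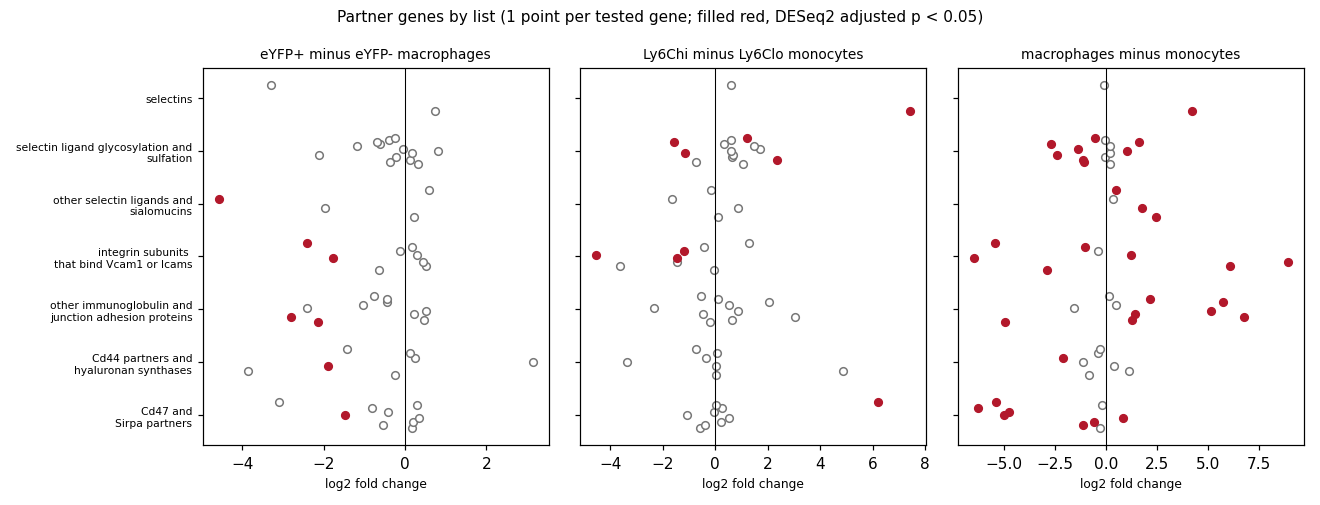
Log2 fold changes of the tested partner genes by list in the same 3 comparisons, with a range of its own on each horizontal axis. Each point is a gene, filled red where the DESeq2 adjusted p was under 0.05, which held for 7 genes on the left, all lower in eYFP+ macrophages, 9 in the middle and 34 on the right.

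Macrophages and monocytes differed for 34 of the 53 tested partner genes, 16 higher and 18 lower in macrophages, where 36% of all genes passed. Erythroid markers summed to 9005 to 35227 TPM in macrophage and 359 to 1410 TPM in monocyte libraries, and neutrophil markers to 122 to 2618 and 6727 to 24014 TPM, and their part in these differences was not tested. Of the integrin subunits that bind VCAM-1 or ICAMs, 3 were higher and 4 lower. Itgad, the αD subunit that pairs with β2, was at 279 to 870 TPM in macrophages and at most 3.79 TPM in monocytes (log2 8.91 ± 0.69, DESeq2 adjusted p = 5.88e-36), and Itga9 (6.06 ± 1.02, adjusted p = 2.56e-08) and Itgax (1.19 ± 0.32, adjusted p = 0.00106) were higher too. For Itgax this held against the average of both monocyte groups, and the macrophage average lay below Ly6Clo cells. Itgal was lower (-6.51 ± 0.33, adjusted p = 4.3e-85), at 1.37 to 12.6 TPM in macrophages and 192 to 880 TPM in monocytes, together with Itgb7 (-5.46, adjusted p = 3.12e-58), the α4 subunit Itga4 (-2.90, adjusted p = 3.52e-28) and the shared β2 subunit Itgb2 (-1.04, adjusted p = 1.57e-11). Itgam was listed at 0.205 to 2.47 TPM in macrophages and 22.4 to 103 TPM in monocytes, and DESeq2 gave it no adjusted p. CD11b, its product, was used to sort monocytes. On the ligand side, the sialyltransferase St3gal4 was lower in macrophages (-2.71 ± 0.15, adjusted p = 3.23e-70) and the sialomucin Cd164 higher (2.47 ± 0.14, adjusted p = 2.68e-69), while 6 of the 13 ligand-building genes were lower and 2 higher. Of the junction proteins 6 were higher and 1, Alcam (-4.97, adjusted p = 4.45e-29), lower, with Mcam at 1.04 to 2.84 TPM in macrophages and at most 0.157 TPM in monocytes. Msn, which links CD44 to actin, was lower in macrophages (-2.14 ± 0.22, adjusted p = 1.54e-20) and was the 1 CD44 partner of 7 to pass.

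The CD47 and SIRPα list held 9 tested genes, of which 6 were lower and 1 higher in macrophages, where 15.3% of all genes passed as lower and 20.7% as higher. The lowest adjusted p-values were those of Sirpb1c (-6.31 ± 0.23, DESeq2 adjusted p = 1.74e-156), Sirpb1b (-4.75, adjusted p = 3.53e-76) and Sirpb1a (-4.99, adjusted p = 6.75e-59), activating relatives of Sirpa. Sirpb1c was at 2.48 to 7.59 TPM in macrophages and 302 to 401 TPM in monocytes, so that Sirpa and these relatives went in opposite directions. These genes are similar in sequence, and how read pairs split among them and Sirpa is uncertain. The phosphatases that SIRPα recruits, Ptpn6 (-0.61, adjusted p = 0.00822) and Ptpn11 (-1.14, adjusted p = 4.77e-05), were lower in macrophages, as was Thbs1 (-5.40, adjusted p = 1.0e-05), and Qpctl, the enzyme that modifies CD47 for SIRPα binding, was higher (0.84, adjusted p = 0.00379).

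Genes whose pattern over the 12 libraries was most like that of each adhesion gene were found among 12934 candidates, as those with the smallest root mean square difference between centred variance-stabilised values, whose scale is close to log2. Vcam1 was closest to Cd5l (0.354) and Slc40a1 (0.366), where the median gene differed by 4.26. Icam2 was closest to Gm13012 (0.353) and Slc38a1 (0.384), and Spn to Cbfa2t3 (0.389) and Sh2d3c (0.613). Pecam1 was closest to Bhlhe40 (0.321) and Bcl2a1a (0.383), and Icam1 to Cndp2 (0.158) and Dhrs1 (0.187). For Cd44 the closest were Eef2 (0.179) and Cic (0.185), and for Sirpa Naglu (0.178) and Ikzf2 (0.198). The smaller values of Selplg with Gnai2 (0.0855) and Polr3c (0.0922), and of Cd47 with Gm20768 (0.108) and Gm6051 (0.115), go with the small spread of these genes, whose own SD over the libraries was 0.382 and 0.303.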

How the data were processed

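Bone marrow cells of 4 sorted groups were sequenced as amplified full-length cDNA without molecular identifiers, so that reads are not independent molecules. According to the methods of the study, the authors trimmed reads (Trimmomatic, Cutadapt), corrected them (Rcorrector), removed ribosomal reads (SortMeRNA), aligned them with segemehl to the GRCm39 genome with Ensembl annotation and counted unambiguous read pairs per gene with featureCounts, after conversion with bcl2fastq 2.20.0.422. The setting for strand is not given in the sources used here. The deposited tables hold raw counts, TPM and variance-stabilised values close to log2, all by the authors. Every sample column was assigned from its label.

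Here the counts were fitted with DESeq2 1.42.0 in R 4.3.3 over the 12 libraries by group, with 7 contrasts, independent filtering and Benjamini-Hochberg adjustment over all genes, at an adjusted p of 0.05. Fold changes are DESeq2 estimates, with 95% intervals of 1.96 standard errors. edgeR 4.0.16, limma 3.58.1 on log2(TPM + 1) or log2(TPM + 0.1), other filters and the omission of libraries were alternatives. The fits were tested on simulated data. All 9 adhesion genes are named. From each partner list up to 3 higher and 3 lower genes of lowest adjusted p are named per comparison, and further ones where every passing gene is listed. One gene of the lists is not reported here and enters no list count or sum. The genes and lists were chosen with earlier results of these data known. Symbols matched 91.4% of gene rows, from an annotation of another build. Transcript GC content and RefSeq promoters are those of GRCm38.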

Additional observations from a re-analysis of the deposited data

How the results depend on the processing

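Of 25 alternatives (24 for macrophages minus monocytes, where fitting only the groups compared is the same fit), most kept direction and call: 1460 single-gene values held, 72 lost the threshold, 11 gained it and 23 changed sign. Between eYFP+ and eYFP- macrophages the count of adhesion genes that passed went from 2 to 1 with edgeR and to 1 with edgeR and the replicate block, Spn being lost (adjusted p = 0.0593 and 0.109). The count of partner genes there went from 7 to 1 with edgeR, 0 with edgeR and the replicate block, 4 with limma on log2(TPM + 0.1), 11 without eYFP+ replicate 1 and Ly6Clo replicate 2, and 3 to 11 on leaving out single libraries. Between the monocyte groups it went from 9 to 5 with edgeR, 4 with edgeR and the replicate block, 15 without the same 2 libraries, and 4 to 11 on leaving out single libraries. Between eYFP- macrophages and Ly6Chi monocytes the adhesion genes went from 8 to 5 with edgeR and the replicate block. The causes were not tested. With the replicate block in DESeq2, 2, 2 and 8 adhesion genes and 7, 10 and 34 partner genes passed in the macrophage, monocyte and macrophage-minus-monocyte comparisons, Cd47 being lost in the last 2. Counts of adhesion genes between macrophages and monocytes include Vcam1 here. The replicate numbers were not taken as pairs in the main fit. Deviations of same-numbered macrophage libraries correlated at 0.368, 0.205 and 0.0720, and those of eYFP+ and Ly6Clo libraries at -0.466, -0.413 and 0.245. The negative values are those of replicates 1 and 2, which hold the 2 libraries that stood apart. The column labels number the libraries in blocks by replicate, each block with every group, and whether a block shared mice or processing is not stated. The edgeR fit with the block was chosen after seeing the data.

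The sign changes were of differences that had not passed. For eYFP+ minus eYFP- macrophages, omission of libraries, single or the 2 that stood apart, gave -0.11 to 0.47 for Cd44, -0.40 to 0.018 for Pecam1, -0.21 to 0.0062 for Cd47 and -0.11 to 0.25 for Sirpa, which was also -0.023 with limma at either pseudocount. Selplg was -0.020 to 0.10 for Ly6Chi minus Ly6Clo. Cd47 for eYFP- macrophages minus Ly6Chi monocytes, 0.0019 as reported, was -0.029 with edgeR, -0.0043 with TMM factors, -0.0029 and -0.0039 with the replicate block without and with a count minimum, -0.034 with edgeR and the block, -0.037 without the 2 libraries, -0.048 with only the groups compared, and -0.12 to 0.090 on leaving out single libraries. Another scaling moved the median gene by at most 0.0973 on the log2 scale, except 0.140 with limma for eYFP- macrophages minus Ly6Clo monocytes.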

Other observations

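Depth does not limit most of these genes, which had over 50 read pairs in each library except Spn in eYFP+ macrophages. With 3 libraries a group, standard errors of 0.19 to 0.71 on the log2 scale for single pairs of groups set how small a difference could be seen, as for Cd44 (95% interval -0.88 to 1.22) and Sirpa (-0.89 to 0.98) between the macrophage groups. Transcript counts do not measure surface protein, and the glycans by which Selplg, Cd44 and Spn products bind selectins were not measured.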
